A study of Sus scrofa with 12 samples.

Results

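Antisense transcripts are RNAs read from the DNA strand opposite to an annotated gene, over the bases of that gene's own exons. They were collected here from the loin muscle, longissimus dorsi (LD), of 12 castrated Iberian pigs, 6 with a high (H) and 6 with a low (L) breeding value for intramuscular fat (IMF). A transcript was taken when it was spliced (2 or more exons), had a strand, lay on an assembled chromosome, shared at least 1 exonic base with a gene of the RefSeq annotation of Sscrofa11.1 on the opposite strand, and shared none with a gene on its own strand. Matched by their intron chain, the ordered list of the introns, these transcripts were 500 distinct chains out of 103656 spliced chains in all. Chains that share exonic bases on 1 strand were joined into 296 loci, each called after the gene it opposes with the ending -AS.

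All pigs were males fattened outdoors on acorns and grass, and no treatment separated the groups. The H pigs had 10.62 to 13.8% of IMF and breeding values of 2.78 to 3.48, and the L pigs 1.7 to 2.28% and -1.46 to -1.31. These IMF values are those of the labels, and the study's methods give another mean for the L group. Each pig gave 1 paired-end library of total LD RNA. The study's methods name several fattening and slaughter batches but, as read here, do not say which pig was in which. The libraries were of muscle by their markers, with a summed level of muscle genes of 29509 to 49586 FPKM in H and 32247 to 43716 FPKM in L. FPKM, the fragments of a transcript relative to its length and to the mapped fragments of the library, is the deposited level of each transcript, scaled here between libraries.

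Natural antisense RNAs are known at many mammalian genes. Where a pair of genes is read outwards from a shared promoter region, the first exons can overlap head to head, and where they are read towards each other the last exons can overlap tail to tail. Known members of the class can hold back or stabilise the sense messenger RNA, change its splicing, or carry marks to its promoter, and many have no known role. The strand of a spliced transcript in such an assembly can be taken from the bases at the intron ends. These normally read GT at the donor (5′) end and AG at the acceptor (3′) end. The strand given did not follow these bases throughout, since 61 of 610 antisense introns had standard bases on the other strand alone. The sources used here do not give the strand setting of these libraries, so where exons of both strands overlap, the reads of one strand cannot be told apart from those of the other.

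The following windows show the first intron of the most recurrent chain at the 5 most abundant loci that were listed in all 12 libraries. They show on which strand the standard bases stand. Each window is read 5′ to 3′ on the antisense transcript, with exon and intron in lower case and the first or last 2 intron bases in capitals (RefSeq, Sscrofa11.1).
TOPORS-AS donor, minus strand, chr10:33866180-33866203: ttattcagcgGTaggccccgggcc
TOPORS-AS acceptor, chr10:33865858-33865881: cttgcatttttcAGttgctcctcg
GAS8-AS donor, plus strand, chr6:87203-87226: gcccccgcagGTacccgcgctcag
GAS8-AS acceptor, chr6:87810-87833: ctctcgtggcctAGggcagaggca
IGHMBP2-AS donor, plus strand, chr2:4194690-4194713: cccgggacagGTgagactagggtt
IGHMBP2-AS acceptor, chr2:4198091-4198114: tcttgttccctcAGctcccccgtg
LOC110256827-AS donor, plus strand, chr14:140335970-140335993: gccatggcagGTgaggggcccgcg
LOC110256827-AS acceptor, chr14:140349727-140349750: acgtttccttgcAGagtaaaagcc
COL24A1-AS donor, minus strand, chr4:130230197-130230220: aatcgctaagGTatttcaaggttt
COL24A1-AS acceptor, chr4:130228824-130228847: tactttttaaaaAGcttggaaacc
All 5 introns begin with GT and end with AG on the antisense strand.

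A second set of windows was chosen after the values were seen, and shows 2 introns of another kind. At C4H1orf43-AS and PET100-AS the antisense transcript has exactly the intron of the gene it opposes. Each intron is printed on both strands to show on which of them the standard bases stand.
C4H1orf43-AS donor, minus strand, chr4:95520704-95520727: gtacaaacacCTgtccaaaaaatg
C4H1orf43-AS acceptor, minus strand, chr4:95520316-95520339: ggaaatctcctcACcaggctcccg
C4H1orf43 donor, plus strand, chr4:95520316-95520339: cgggagcctgGTgaggagatttcc
C4H1orf43 acceptor, plus strand, chr4:95520704-95520727: cattttttggacAGgtgtttgtac
PET100-AS donor, plus strand, chr2:71520086-71520109: agatggtcatCTggaagggcagga
PET100-AS acceptor, plus strand, chr2:71520761-71520784: cactgctcactgACccgaaacacc
PET100 donor, minus strand, chr2:71520761-71520784: ggtgtttcggGTcagtgagcagtg
PET100 acceptor, minus strand, chr2:71520086-71520109: tcctgcccttccAGatgaccatct
On the antisense strand both introns read CT and AC, and on the strand of the gene they read GT and AG.

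The muscle of every pig held antisense transcripts, in similar numbers in both groups. The 6 H libraries held 70, 77, 88, 106, 67 and 71 of them, and the 6 L libraries 78, 80, 61, 73, 73 and 80. The ranges overlapped, and the highest count was in H4 and the lowest in L3. The mean was 79.8 ± 14.8 in H and 74.2 ± 7.19 in L (SD, n = 6 each, two-sided exact permutation test, p = 0.474). As a share of the spliced transcripts of a library they made 0.368 ± 0.0583% in H and 0.356 ± 0.0292% in L (SD, n = 6 each, two-sided exact permutation test, p = 0.688). The smallest p that 6 pigs against 6 allow is 0.0022.

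The number of antisense transcripts went with the number of all spliced transcripts of the library. Across the 12 pigs Pearson's r was 0.81 (permutation test, p = 0.00344, adjusted p = 0.00688 over 2 relations) and Spearman's rho was 0.36 (permutation test, p = 0.243, adjusted p = 0.243). Without H4 and L3, the libraries with the most and the fewest spliced transcripts, r was 0.21, so the relation rests on these libraries. Within groups r was 0.88 in H and 0.88 in L. These values include H4 and L3, so they give the relation no separate support. Against the sequencing depth of the library, taken as the coverage of 1 FPKM, r was 0.59 (permutation test, p = 0.0375, adjusted p = 0.0375) and rho 0.57 (permutation test, p = 0.0573, adjusted p = 0.115), and r was 0.29 without H4 and H5. Within groups r with depth was 0.57 in H and 0.70 in L. The number of spliced transcripts differed between the groups, with 21598 ± 605 in H and 20787 ± 410 in L (SD, n = 6 each, two-sided exact permutation test, p = 0.00433). The depth itself ranged from 7.50 to 11.5 in H and from 8.38 to 11.3 in L.

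**Figure D1:**
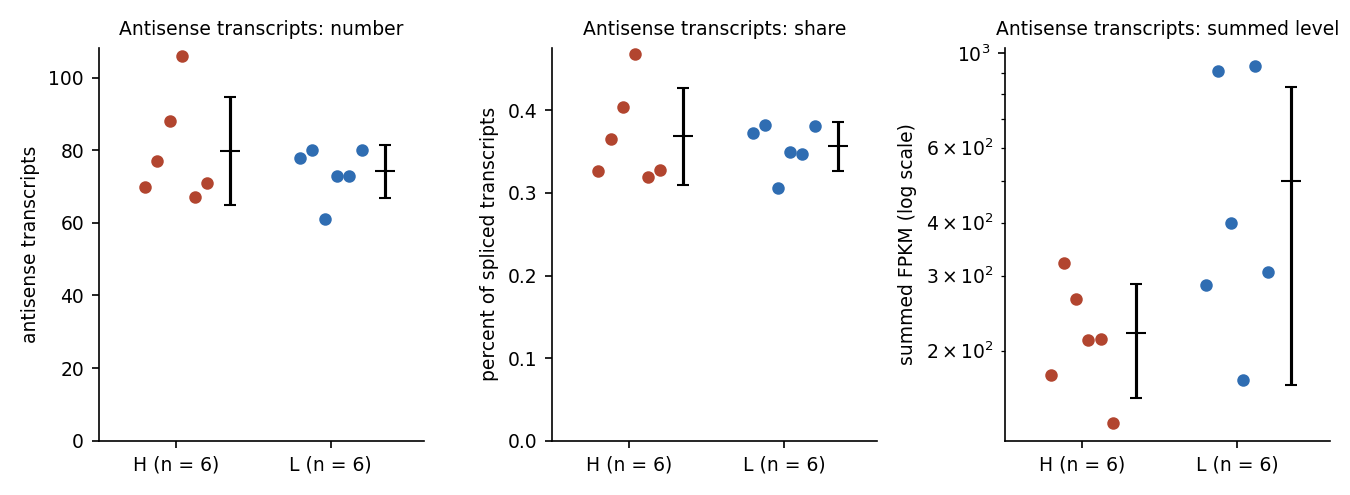
Antisense transcripts in each library of the H and L groups: their number (left), their percent of all spliced transcripts (middle) and their summed FPKM on a log axis (right). Coloured points are pigs and black marks are the mean ± SD (n = 6). The points of the groups overlap in all 3 panels, and the 2 highest sums, 935 and 906 FPKM, are L pigs.

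The summed level of antisense transcripts was higher in some L pigs. It was 176, 322, 264, 212, 213 and 135 FPKM in the H libraries and 285, 906, 398, 170, 935 and 306 FPKM in the L libraries. The groups overlapped, with L5 and L2 above all others. In whole muscle, fewer cells of a type and less RNA per cell cannot be told apart. On the log2 scale H was lower by 0.96 (difference -0.96; two-sided exact permutation test, p = 0.0563). In every library 1 locus carried a large part of the sum, from 15.6% in H3 to 57.2% in L2, and with the median of the transcripts in place of the sum the difference was -0.19 (two-sided exact permutation test, p = 0.316). Over chains found in at least 2 libraries the sums had means of 160 FPKM in H and 185 FPKM in L, a log2 difference of -0.24 (two-sided exact permutation test, p = 0.346).

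The loci behind the highest sums in L were listed in few pigs. HSPA1L-AS, opposite the gene of a heat shock protein of the 70 kDa family, was listed at 519 FPKM in L2 and 259 FPKM in L5, and in no other library. Its sense gene HSPA1L had a median of 4.90 FPKM. It was a different chain in each of these pigs, and they shared 19 and 7 bases with HSPA1L. The chain of L5 holds an open reading frame of 555 codons over 2231 bases, but its single intron has standard bases on the other strand alone, so its strand is uncertain. TRDN-AS lay past the 3′ end of TRDN, which encodes triadin, a protein of the calcium release complex of muscle. It was listed at 131 FPKM in L6 and 239 FPKM in L5 alone, where the median of TRDN over all pigs was 442 FPKM. LOC102163816-AS, opposite a long non-coding RNA on chromosome 2, was listed at 103 FPKM in L2, 127 FPKM in L3 and 202 FPKM in L5 and in no H library. It too was a different chain in each of these pigs. Its sense RNA was at 117, 304 and 166 FPKM in these 3 pigs, and at 281 to 496 FPKM in H. Over all L pigs the sense RNA had a median of 313 FPKM and reached 423 FPKM. L pigs without the antisense transcript thus lay in the range of H. TUBA4A-AS, opposite an alpha tubulin gene, was listed at 112 FPKM in L1 alone, and its intron is an intron of TUBA4A with standard bases on the strand of that gene. HSPA1L-AS, TRDN-AS and TUBA4A-AS were chosen after their values were seen.

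Most antisense chains were seen in a single pig. Of the 500 chains 357 (71.4%) were found in 1 library, against 65.3% of all 103656 spliced chains. Only 26 were found in 6 or more libraries (5.2%, against 12.3% of all chains) and 3 in all 12 (0.6%, against 3.63%). These counts are unlike, since antisense chains were counted where they met the rule and all chains wherever they were assembled. Counted wherever they were assembled, 34 antisense chains were in at least 6 libraries. A locus joins its chains, so by its making it is found in at least as many libraries as each of them. The counts of loci therefore cannot be set against those of chains. Of the 296 loci 145 (49.0%) were found in 1 library, 101 in 3 or more, 41 in 6 or more and 7 in all 12. A value was listed in both groups at 132 loci, in H pigs alone at 95 and in L pigs alone at 69. No such count over all chains or genes stands beside these, and the H libraries held more spliced transcripts. They are therefore not a result about the groups.

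**Figure D2:**
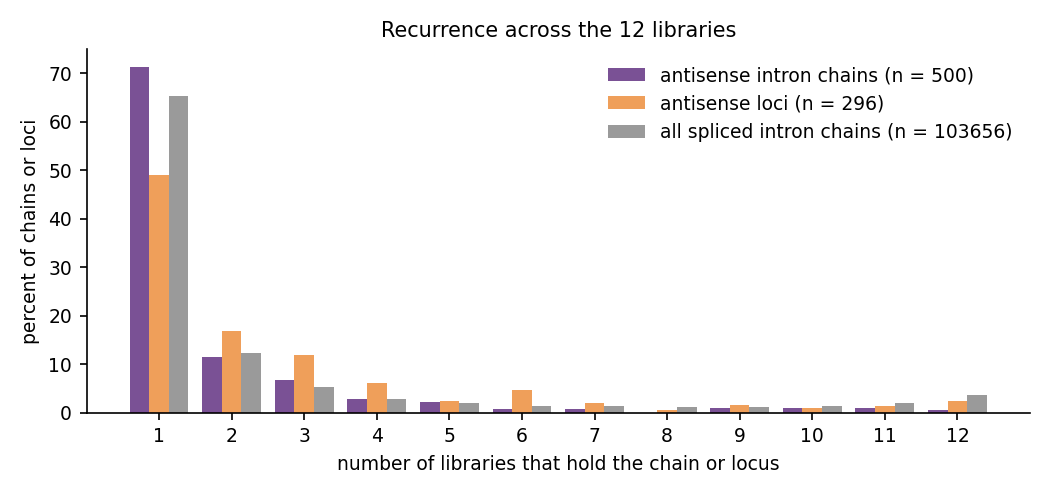
Percent of antisense intron chains, antisense loci and all spliced intron chains (vertical axis) by the number of libraries that hold them (horizontal axis). Antisense chains and loci are counted where they met the rule, and all chains wherever they were assembled. The first bars stand at 71.4, 49.0 and 65.3%, and the bars at 12 libraries at 0.6, 2.36 and 3.63%.

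Antisense transcripts were shorter and simpler than the other spliced transcripts of the same pig. In all 12 libraries their median was 2 exons, and that of the others was 7 or 8. Their median exonic length was 1336 to 2086.5 bases between libraries, against 2407 to 2615 bases. Their median level was 0.498 to 1.01 FPKM, against 1.32 to 1.64 FPKM, a mean difference of -1.07 ± 0.26 on the log2 scale (SD, n = 12). The direction was the same in 12 of 12 libraries for each of these features (two-sided exact paired permutation test over sign changes of the 12 libraries, p = 0.000488, which is the smallest possible, adjusted p = 0.000488 over 4 features). Set against the other transcripts that lack a complete annotated intron chain, the difference in level was -0.25 (two-sided exact paired permutation test, p = 0.0107). The rule leaves out every transcript that shares exonic bases with a gene of its own strand, while the others include such transcripts. These differences, and that in intron ends below, thus cannot be told apart from the effect of the rule.

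**Figure D3:**
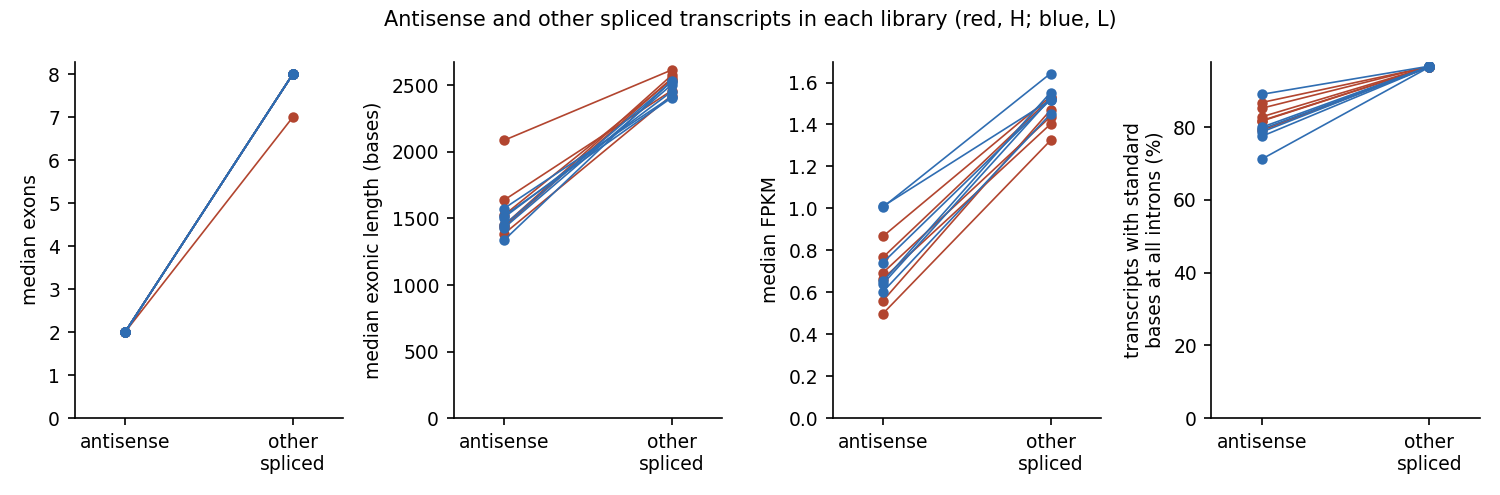
Antisense and other spliced transcripts of each library (1 line per pig, red for H and blue for L): median number of exons, median exonic length in bases, median FPKM, and percent of transcripts with standard bases at all introns. All 12 lines rise from antisense to other transcripts in each panel.

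Standard intron ends were less frequent among antisense transcripts. Counted as standard were GT-AG, GC-AG and AT-AC introns. Of the transcripts of a library 71.2 to 89.0% had standard bases at all introns on their own strand, against 96.5 to 96.8% of the other spliced transcripts, a mean difference of -15.5 ± 4.63 percentage points (SD, n = 12; two-sided exact paired permutation test, p = 0.000488, adjusted p = 0.000488, lower in 12 of 12 libraries). Of 610 distinct antisense introns 526 (86.2%) were standard on their own strand, 490 of them GT-AG, and 61 (10%) had standard bases on the other strand alone. Of the 170639 other introns 98.3% were standard and 0.216% had standard bases on the other strand alone.

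Among the antisense introns 45 (7.38%) were identical in position to an annotated intron of the opposite gene, against 0.0873% of the other introns. All 45 had standard bases on the strand of that gene and not on their own. They occurred in 47 chains, 42 of which had 2 exons. The median level of these chains was 2.22 FPKM, with a median of 5.95 FPKM for their sense genes, and 24 of them (51.1%) were found in 1 library. The 414 chains with standard bases at all introns had a median of 0.471 FPKM, with 0.601 FPKM for their sense genes, and 303 of them (73.2%) were found in 1 library. The remaining 39 chains had a median of 0.594 FPKM. Chain levels here are medians over the libraries that listed the chain, and sense levels are medians over all libraries, so the 2 are unlike measures. Where a chain with a mirrored intron was listed, a transcript with the same intron on the sense strand stood in the same library in 73 of 109 cases (67.0%), and where it was not listed, in 293 of 455 cases (64.4%).

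The sense genes were mostly protein-coding. They were protein-coding at 235 loci (79.4%, against 69.3% of the 28224 annotated genes), long non-coding RNAs at 50, pseudogenes at 10 and a microRNA at 1. The antisense locus lay inside the span of the gene at 112 loci, ran past its 3′ end at 92, past its 5′ end at 75 and past both ends at 17. The shared bases, 413 in the median, fell mostly in coding sequence at 89 loci, in the 3′ UTR at 78 and in the 5′ UTR at 52. Some loci lay beside an annotated gene of their own strand: 110 within 5000 bases of one, 89 of them downstream of it. The sense gene was listed in all 12 libraries at 154 loci and in none at 25. Over the loci the median antisense level was 0.659 FPKM, and the median of the sense genes was 1.45 FPKM, against 2.41 FPKM over the 15017 genes with a transcript in the files. Where the sense gene had a median above 0, at 218 loci, the antisense level was 0.31 of the sense level in the median, with quartiles of 0.142 and 0.681. The antisense level of a locus is its median over the libraries that listed it, while the level of a gene is its median over all 12. Libraries without the antisense transcript are thus left out on 1 side only, which raises the antisense level in these comparisons.

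Antisense transcripts were rare over all annotated genes, and also in the muscle and fat lists. Of all annotated gene symbols, 318 of 27785 (1.14%) shared exonic bases with one. At that share lists of this size would hold few or none, and no list was tested against it. No gene of 61 in a list of contractile and sarcomere genes did, nor of 47 genes of energy metabolism, nor of 34 genes of matrix and vessels. Of 36 genes of excitation and calcium handling there were 2, CACNG1, a subunit of the muscle calcium channel, and TRDN. Of 63 genes of lipid metabolism and adipocytes there was 1, GPAM, and of 64 myogenic and transcription factors 1, HOXC9. Of 36 genes of protein turnover and chaperones there was 1, HSPA1L. Of 60 genes with a described natural antisense RNA in mammals there were 2, HOXD1 and IGF2. IGF2-AS, opposite the gene of an insulin-like growth factor, was listed at 0.240 to 0.312 FPKM in H2, H3 and H4 alone, and in 2 of these libraries its transcript shared no base with an IGF2 exon.

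There were 9 loci with a value in all 12 libraries, and 2 of these, MIR378-1-AS and WDR17-AS, met the rule in fewer, since in some pigs their transcripts ended before the sense exon. The most abundant was TOPORS-AS, on the minus strand of chromosome 10 (33865650 to 33866470). It shared 88 bases with exons at the 5′ end of TOPORS, which encodes a ubiquitin and SUMO ligase, and ran past that end. Its level was 20.9, 22.6, 15.7, 26.7, 14.8 and 16.3 FPKM in the H pigs and 17.6, 24.4, 14.3, 16.6, 15.4 and 15.1 FPKM in the L pigs. The groups overlapped, with H4 and L2 highest. TOPORS itself was at 3.08 to 5.01 FPKM in H and 3.74 to 5.62 FPKM in L, below its antisense RNA in every pig.

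GAS8-AS lay inside GAS8, which encodes a subunit of the dynein regulatory complex of cilia, on the plus strand of chromosome 6 (87164 to 92513). Its range was the widest of these 5 abundant loci, with 3.24, 20.1, 14, 19.1, 1.83 and 2.24 FPKM in the H pigs and 13.5, 21.7, 13.9, 17.4, 17.4 and 9.52 FPKM in the L pigs. H1, H5 and H6 stood below all others, and the remaining H pigs lay within the L range. GAS8 was at 1.68 to 2.66 FPKM in H and 1.83 to 2.64 FPKM in L. The log2 fold change (H minus L) of GAS8-AS was -1.12 (SE 0.56, limma adjusted p = 0.699).

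IGHMBP2-AS was the locus with the most exons among chains found in 6 or more libraries. It had 7 exons on the plus strand of chromosome 2 (4193807 to 4206472), and its first exon overlapped 305 coding bases and 15 bases of the 5′ UTR of IGHMBP2, a DNA and RNA helicase, head to head. All 12 libraries held the same chain, at 7.33 to 9.09 FPKM in H (median 8.13) and 6.39 to 9.60 FPKM in L (median 7.50). These values lay close together, and IGHMBP2 had a median of 2.84 FPKM in H and 2.86 FPKM in L. The longest open reading frame of the chain had 209 codons.

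LOC110256827-AS, on the plus strand of chromosome 14 (140335730 to 140357530), ran past the 5′ end of a predicted gene for a proline-rich protein. It was at 3.02 to 5.11 FPKM in H (median 4.31) and 3.45 to 4.71 FPKM in L (median 3.90), while the predicted gene was listed at 0 in all 12 libraries. COL24A1-AS, inside the gene of the alpha chain of collagen XXIV on chromosome 4 (130225318 to 130234267, minus strand), was at 0.829 to 6.10 FPKM in H (median 1.96) and 1.07 to 3.86 FPKM in L (median 2.51). COL24A1 was listed in 5 libraries, at up to 1.56 FPKM. At both loci the antisense RNA stood in every library and the sense gene in few or none.

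The remaining loci with a value in every pig were low. MIR378-1-AS spanned the hairpin of the microRNA gene MIR378-1 on chromosome 2 (150801599 to 150827486, minus strand) and was at 0.856 to 1.83 FPKM in H and 0.654 to 2.85 FPKM in L. CLEC12A-AS, with exons opposite CLEC12A, CLEC12B and LOC100520308 on chromosome 5 (61910623 to 61972726, minus strand), was at 0.568 to 1.11 FPKM in H and 0.352 to 1.23 FPKM in L. WDR17-AS, opposite a gene of a WD repeat protein on chromosome 15 (38688026 to 38691766, minus strand), was at 0.247 to 1.32 FPKM in H and 0.359 to 0.900 FPKM in L. LOC100738134-AS lay opposite a zinc finger gene on chromosome 13 (27939612 to 27944387, minus strand), at 0.365 to 0.483 FPKM in H and 0.354 to 0.493 FPKM in L. Its single intron was the same in all 12 pigs but had standard bases on neither strand. Zinc finger and lectin genes have close relatives, among which reads can be split, so these values are uncertain.

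**Figure D4:**
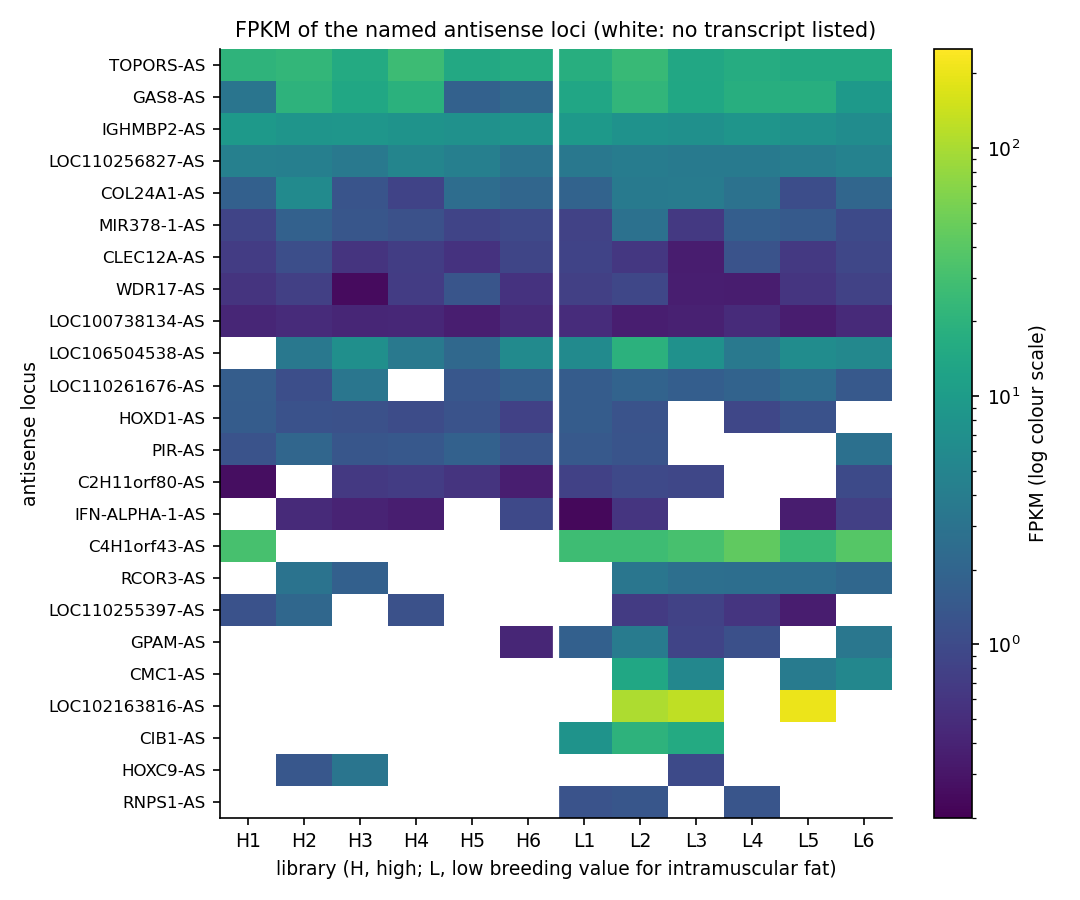
FPKM of the named antisense loci (rows) in the 12 libraries (columns, H left and L right of the white line) on a log colour scale, where white means that no transcript was listed. The first 9 rows are filled in all 12 libraries, and C4H1orf43-AS is filled in 1 H and 6 L libraries.

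Between H and L no antisense transcript passed the test. In the fit over all 12707 spliced chains found in at least 6 libraries, which included 34 antisense chains, limma called 0 of the 34 at an adjusted p under 0.1, and 0.0551% of all chains. At an unadjusted p under 0.05 there were 2 of the 34 (5.88%), against 5.31% of all chains, and both were lower in H, against 3.05% of all chains. In the fit over 12480 genes and loci whose mean reached 0.5 FPKM in at least 1 group, limma called 0 of 83 antisense loci, and 0.00801% of all. At an unadjusted p under 0.05 there were 7 of the 83 lower in H, against 3.4% of all, and 0 higher, against 3.87%. The median log2 fold change of the 83 loci was -0.01, and over all genes and loci it was 0.00. No antisense locus tested had groups that did not overlap, against 0.553% of all. The remaining loci were below the minimum and not tested, and a locus could reach the minimum through 1 group alone. Among the 7 loci, CMC1-AS, LOC102163816-AS, CIB1-AS and RNPS1-AS had a mean of 0 FPKM in H, and GPAM-AS one of 0.071 FPKM. They reached the minimum through L alone, so the count of 7 cannot be read apart from the minimum.

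C4H1orf43-AS came nearest to the threshold, and it is one of the loci with a mirrored intron. It lay in the 5′ part of C4H1orf43 on the minus strand of chromosome 4 (95520061 to 95520721), with 199 shared bases in the 5′ UTR and 70 in the coding sequence. Its longest transcript had 268 exonic bases, so it lay almost wholly on exons of the gene. The intron ran from 95520326 to 95520717, so the exon before it held only the few bases up to 95520721. The donor window shown above reaches past that end. It was listed at 27.6, 27, 31.1, 43.2, 24.9 and 38.1 FPKM in the L pigs, at 31.3 FPKM in H1, and in no other H pig. Thus H1 stood among the L pigs, and the other 5 H pigs were listed at 0. The log2 fold change on the log2(FPKM + 0.5) scale was -4.99 (SE 0.91, limma adjusted p = 0.239), and without H1 limma called it (adjusted p = 1.53e-09). That call gives the difference no support, since leaving out H1 leaves only values of 0 in H. The sense gene did not part in this way, with 14.7 to 20.6 FPKM in H and 15.9 to 22.8 FPKM in L. A sense transcript with the same intron was listed in all 12 libraries. The part of the mirrored intron in this difference was not tested.

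GPAM-AS lay opposite the only gene of the lipid and adipocyte list that had an antisense transcript. GPAM encodes the mitochondrial glycerol-3-phosphate acyltransferase, which takes the first step of triglyceride synthesis. GPAM-AS ran on the plus strand of chromosome 14 (122577568 to 122609637), shared 273 bases with the 5′ UTR of GPAM and continued past its 5′ end, in the span of the long non-coding gene LOC110256751. Its single intron of 29672 bases had GT and AG at its ends on the antisense strand.
GPAM-AS donor, plus strand, chr14:122579337-122579360: agtgtagaagGTgcgcccacaagt
GPAM-AS acceptor, plus strand, chr14:122609005-122609028: ttgattttttgcAGaactaaaatc
It was listed at 1.77, 3.86, 0.863, 1.14 and 3.36 FPKM in L1, L2, L3, L4 and L6, at 0.426 FPKM in H6, and in no other pig. So 5 of 6 L pigs and 1 of 6 H pigs had it. The log2 fold change was -1.75 (SE 0.45, limma adjusted p = 0.552), and for the chain by itself the adjusted p was 0.626, and 0.0848 without L5, the L pig that lacked it. Leaving out the L pig that goes against the difference gives the difference no support. GPAM was at 3.83 to 7.22 FPKM in H and 2.29 to 7.33 FPKM in L, which overlapped widely. The summed level of adipocyte markers was 27.1 to 128 FPKM in H and 13.9 to 73.3 FPKM in L, and its part in this difference was not tested.

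**Figure D5:**
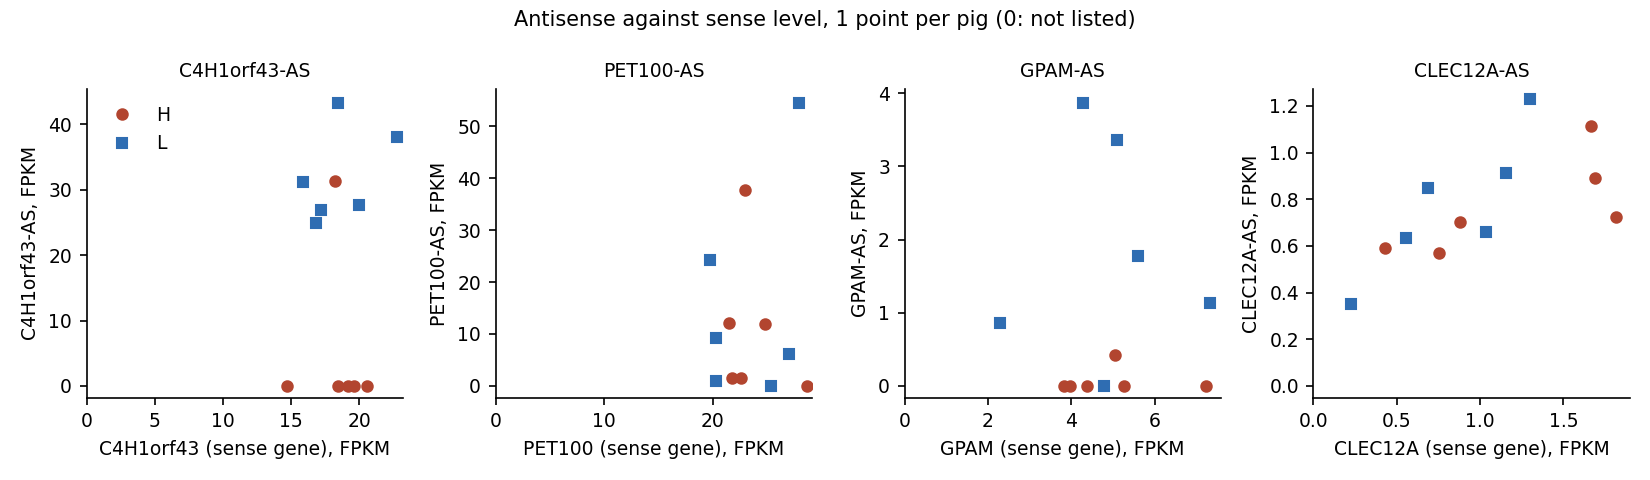
Level of 4 antisense loci (vertical axis, FPKM) against their sense gene (horizontal axis, FPKM), with 1 point per pig, red circles for H and blue squares for L. C4H1orf43-AS is at 0 in 5 H pigs and GPAM-AS in 5 H pigs and 1 L pig at like levels of the sense gene, and CLEC12A-AS is higher in pigs with more CLEC12A.

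Other loci with a small unadjusted p were listed in few pigs. CMC1-AS, opposite a gene for a factor of cytochrome oxidase assembly, was listed at 14, 5.40, 3.94 and 5.40 FPKM in L2, L3, L5 and L6 (adjusted p = 0.563 from limma), and its intron has standard bases on the other strand alone. CIB1-AS, another locus with a mirrored intron, opposite a gene for a calcium-binding protein, was listed at 7.90, 19.9 and 15.8 FPKM in L1, L2 and L3 (adjusted p = 0.659). RNPS1-AS, opposite a gene of the exon junction complex, was listed at 1.23, 1.34 and 1.31 FPKM in L1, L2 and L4 (adjusted p = 0.679). These 3 loci were listed at 0 in all 6 H pigs, as was LOC102163816-AS (adjusted p = 0.654), so that no fold change is given. RCOR3-AS, head to head with the gene of a corepressor, was listed in 2 H pigs at 1.80 and 2.98 FPKM and in 5 L pigs at 2.17 to 3.28 FPKM (log2 fold change -1.38, SE 0.63, limma adjusted p = 0.685). It met the rule in 1 library alone. LOC106504538-AS, opposite a long non-coding RNA, was at 0 to 6.96 FPKM in H (median 3.53) and 3.53 to 19.6 FPKM in L (median 6.23; log2 fold change -1.23, SE 0.59, limma adjusted p = 0.695).

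PIR-AS was the locus with the smallest p among those with a higher mean in H. It overlapped the 5′ UTR of PIR, which encodes pirin, a nuclear iron-binding protein, on the X chromosome (12033026 to 12036004, plus strand). It was listed in all 6 H pigs, at 1.26 to 2.09 FPKM, and in L1, L2 and L6, at 1.47, 1.26 and 2.80 FPKM. Where it was listed the groups overlapped, and 3 L pigs were listed at 0 (log2 fold change 0.93, SE 0.47, limma adjusted p = 0.699).

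The homeobox gene clusters, which pattern the body axis, are known for antisense RNAs. HOXD1-AS overlapped the 5′ UTR of HOXD1 over 181 bases on the minus strand of chromosome 15 (81975206 to 81987798).
HOXD1-AS donor, minus strand, chr15:81987583-81987606: ccccggacagGTatggaccaggtt
HOXD1-AS acceptor, minus strand, chr15:81977159-81977182: tcctattcttacAGtttctgaaag
It was listed in all 6 H pigs at 0.787 to 1.58 FPKM (median 1.19) and in 4 L pigs at 0.918 to 1.61 FPKM (log2 fold change 0.53, SE 0.37, limma adjusted p = 0.774). HOXD1 was at 2.70 to 12 FPKM in H and 3.92 to 14.2 FPKM in L. HOXC9-AS was listed at 1.38 and 3.16 FPKM in H2 and H3 and at 1.01 FPKM in L3, where HOXC9 was highest, at 21.6 FPKM.

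Some loci were assembled in many forms. C2H11orf80-AS and LOC110255397-AS had 10 distinct chains each and IFN-ALPHA-1-AS had 8. C2H11orf80-AS was listed in 9 libraries at 0.263 to 1.01 FPKM and LOC110255397-AS in 7 at 0.353 to 2.18 FPKM. IFN-ALPHA-1-AS crossed a cluster of interferon genes on chromosome 1 (201278428 to 201369822), and was listed in 8 libraries at 0.230 to 0.969 FPKM, while IFN-ALPHA-1, an antiviral cytokine gene, was listed at 0 in all 12. LOC110261676-AS, opposite a long non-coding RNA on chromosome 7, had 6 exons and was listed in 11 libraries at 1.12 to 3.26 FPKM, with an open reading frame of 578 codons.

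Long open reading frames were not rare. Of the 500 chains 190 (38%) held one of at least 100 codons from ATG to a stop, with a median of 87 codons over all chains. Of the 26 chains that met the rule in 6 or more libraries 15 (57.7%) held one, with a median of 109.5 codons. No frame was compared with known proteins, and no share over other chains of like length stands beside these counts. Chains whose introns have standard bases on the other strand alone were counted too. The counts are therefore not a result about antisense chains.

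Across pigs, sense and antisense levels were compared at the 6 loci where both were listed in all 12 libraries. At CLEC12A, which encodes a receptor of myeloid cells, Pearson's r was 0.76 (permutation test, p = 0.00428, adjusted p = 0.0257 over 6 pairs) and Spearman's rho was 0.74 (permutation test, p = 0.00810, adjusted p = 0.0486). Without H4 and L3, the pigs farthest from the median of CLEC12A, r was 0.76, and within groups it was 0.76 in H and 0.88 in L. The pair shared 71 exonic bases, and the part of shared reads in this relation was not tested. The summed level of macrophage markers was 4.12 to 8.96 FPKM in H and 1.88 to 7.25 FPKM in L, with CD68 at 0 in all 12 libraries, and its part was not tested either. At the other 5 pairs r was 0.02 for IGHMBP2, 0.20 for LOC100738134, 0.41 for GAS8, 0.42 for WDR17 and -0.49 for TOPORS (permutation tests, adjusted p = 0.272 to 0.941 for r, adjusted p = 0.484 to 0.616 for Spearman's rho). For GAS8 r turned to -0.23 without H5 and H6.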

How the data were processed

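Total RNA of the LD of 12 pigs was sequenced as 1 paired-end library each. Per the labels and the study's methods, the authors used Trim Galore for trimming, TopHat2 2.1.0 with Ensembl gene models for mapping to Sscrofa11.1, and Cufflinks 2.2.1 for a separate assembly of each library. In the deposited files stand transcripts and exons with a score of Cufflinks (not used in any result), the FPKM and the coverage, without gene names. Coverage times exonic length, summed here over all transcripts, was 9.88 to 17.6 gigabases per library, which is not the amount sequenced. A transcript that was not assembled is missing and was set to 0, which does not show that it is absent, so the depth of a library limits which low transcripts were listed.

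Here FPKM were divided by median-ratio factors over 10470 genes listed in all libraries (0.900 to 1.14). The value of a locus is the summed FPKM of all transcripts with its chains. In 39 chains the ends differed between libraries, and 91 transcripts of these had no shared exonic base and 11 lay on an own-strand gene. Counts per library used the rule strictly. The RefSeq annotation of Sscrofa11.1 gave genes and sequence. Chains and loci were tested on log2(FPKM + 0.5), which understates folds of low transcripts, with limma 3.58.1 in R 4.3.3 (variance trend, two-sided, Benjamini-Hochberg, threshold 0.1). The study's Cuffdiff needs alignments, which were not used. Exact permutation tests went through every arrangement of the pigs, and correlations used 100000 resamples, in Python 3.11.15. P-values measure the spread between pigs. On simulated data of 12480 genes and loci limma found 66 of 100 log2 changes of size 1.2 and 88 of 100 of size 2. There were 15 false calls. On 12707 chains limma found 39 and 67 of 100, with 11 false calls. Recovery among the antisense loci and chains alone, many of them at 0 in some pigs, was not tested.

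Loci were named when called, when listed in all libraries, when among the 10 loci or 5 chains with the smallest p, when found in 3 libraries opposite a gene of a fixed list (up to 3 a list), when they had the most chains or exons (3 each), or when correlated with the sense gene. PET100-AS, HSPA1L-AS, TRDN-AS, TUBA4A-AS, IGF2-AS and the windows of HOXD1-AS and GPAM-AS are outside this rule, chosen with their values in view. The members and lists were chosen with earlier results of these data known. Alternatives were other pseudocounts, scalings, filters, variance models, a depth covariate, the individual number as a block, other rules for members, and each pig left out.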

Additional observations from a re-analysis of the deposited data

Results flagged for a closer look

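In 29 groups of 6 values tested for a single far value, 4 were found, where chance gives about 1 in 20 groups. In the H group COL24A1-AS stood at 6.10 FPKM in H2, far above the other 5 pigs. In the L group TOPORS-AS stood at 24.4 FPKM in L2, above the other 5 pigs. Also in L2, LOC106504538-AS stood at 19.6 FPKM, above the other 5 L pigs. L3 held 61 antisense transcripts, below the other 5 L pigs, and it also had the fewest spliced transcripts of all libraries.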

How the results depend on the processing

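The 4 features that set antisense transcripts apart from other spliced transcripts kept their direction and their side of the threshold under all 3 alternatives each, and 1 sense and antisense pair passed under all 3 alternatives of scale and centring. The difference in the number of antisense transcripts (H minus L, 5.67) turned to -0.667 at a minimum of 0.5 FPKM and to -2.20 without H4 and L3, and was 0.433 to 8.23 with 1 pig left out. The difference in their share (0.0121 percentage points) turned to -0.00189 with chains of 2 or more libraries, to -0.0150 at 0.5 FPKM, and to -0.0179 without H4 and L3, and was -0.00776 (without H4) to 0.0220 with 1 pig left out. The difference in summed level (-0.96 on the log2 scale) passed p under 0.05 with FPKM as deposited (-0.98, exact permutation test, p = 0.0455) and without transcripts under 200 bases (-0.97, exact permutation test, p = 0.0455), and shrank to -0.24 over chains of 2 or more libraries and to -0.19 with the median in place of the sum. With 1 pig left out it was -1.22 to -0.73 and passed without H2 or L4. The cause of these changes was not tested.

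Limma called 0 chains and 0 loci under 12 alternatives each. With 1 pig left out the counts were 0 to 1 for chains (1 without H1, C4H1orf43-AS, and 1 without L5, GPAM-AS) and 0 to 1 for loci (1 without H1). H1 was the only H pig that listed C4H1orf43-AS, and L5 the only L pig without GPAM-AS. These calls thus rest on leaving out a pig that went against the difference. With the individual number as a replicate block 0 chains and 0 loci were called, with a smallest adjusted p of 0.883 and 0.660. Pigs with the same number did not deviate together (correlations of -0.07 to 0.06), so the numbers do not pair them. Leaving out chains with mirrored introns, an alternative added after seeing the data, changed no direction of the number or share. Depth limits the low transcripts most, and a transcript missing from a library was counted as 0.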
